A study of Homo sapiens with 20 samples.

Results

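The ABC (ATP-binding cassette) transporter family was taken as every protein-coding gene of the GENCODE annotation whose symbol is ABC, a subfamily letter from A to G and a number, which gave 46 of 20046 genes. A member was counted as marked in a library when the summit of a peak lay in one of its exons, and 22 of the 46 were marked in at least 1 library. The data are MeRIP-seq peak lists, in which RNA fragments bound by an anti-m6A antibody (m6A is N6-methyladenosine) are compared with the input RNA. T24, a human bladder cancer line that is sensitive to cisplatin, was compared with T24R2, a cisplatin-resistant line obtained from T24 by serial exposure to the drug and kept in medium with cisplatin. Per the labels all samples were of WT genotype, grown in RPMI with fetal bovine serum and harvested on day 3. Each line had 5 immunoprecipitation (IP) libraries, described here, and 5 input libraries without antibody, which entered only through the peak calls. The resistant model is 1 derived line, so its selection history and its growth in cisplatin cannot be told apart from resistance itself. The labels give numbered replicates without saying how the cultures were separated, so p-values measure only the spread between these libraries.

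ABC proteins bind and hydrolyse ATP, and most of them use it to move lipids, peptides, metabolites or drugs across a membrane. Members of subfamilies B, C and G include the exporters best known for lowering drug levels in tumour cells, and members of subfamilies E and F have no membrane-spanning part and act with ribosomes. m6A is placed on messenger RNA mostly within the DRACH motif (any base but C, a purine, then A and C, and last any base but G), is typically found in long internal exons and around stop codons, and is read by proteins that affect RNA decay and translation. A peak needs both the mark and enough RNA to see it, so a transcript without a peak can be unmarked, lowly expressed or both, and these cannot be told apart in the lists.

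The sequences below are the DRACH sites nearest the median summit of 10 regions to which the results return, namely the regions of drug exporters called in 5 or more libraries, the regions whose calls differed most between the lines, and the ABCB9 region that ranked high among those in all 10 libraries. They were read from the hg38 genome on the strand of the gene, and the capitals mark the DRACH match. Antibody pull-down does not resolve single bases, so a site shown is the nearest match and not a mapped modification.
ABCC1, 3′UTR near the stop codon, plus strand of chr16:16141348-16141372: tacccctggtAAACCaagcctccca
ABCC1, distal 3′UTR, plus strand of chr16:16142191-16142215: catgggaattTGACCttgactagaa
ABCC3, 3′UTR, plus strand of chr17:50691281-50691305: acttgatagcAAACActgggggcac
ABCC5, 3′UTR of short transcripts, minus strand of chr3:183984685-183984709: tatacagtggTGACCcaagcaatgg
ABCC10, coding exon 3, plus strand of chr6:43432835-43432859: tctggcacttGGACTgctgaagctg
ABCA13, coding exon 18, plus strand of chr7:48279787-48279811: aaagaagagaGAACCaagaaagaga
ABCA3, 3′UTR, minus strand of chr16:2276236-2276260: cagccaggttGAACTgtagcgaggc
ABCB8, 3′UTR, plus strand of chr7:151046139-151046163: ctgagattgtGAACCagcctccatc
ABCF2, first intron and 5′UTR of a short transcript, minus strand of chr7:151226961-151226985: gactcggaggGGACTcacgcgggcg
ABCB9, upstream 5′UTR, minus strand of chr12:122974989-122975013: tccactttacAGACAgctgaactgg

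The 10 lists held between 17203 and 33120 peaks, and 6678 to 7570 protein-coding genes were marked per T24 library against 7774 to 8931 per T24R2 library. No read counts are given, so read depth is unknown and no interval that needs it is printed. Of 14 genes that define bladder epithelium, 5 were marked in some library and 9, KRT5, KRT20, UPK2, UPK3A and CDH1 among them, in none. KRT7 was marked in all 10 libraries and GATA3 in 5 T24 and 0 T24R2 libraries. Of 4 mesenchymal markers 3 were marked, and of 6 markers of blood and endothelium PECAM1 was marked in all 10 libraries and CD14 in 5 T24 and 4 T24R2 libraries, while PTPRC and VWF had no exonic peak. These are peaks and not expression, so the labelled cell type could not be checked further, and what part the markers have in the results was not tested.

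The number of marked ABC genes overlapped between the lines. In replicate order, 14, 15, 15, 18 and 14 ABC genes were marked in the T24 libraries and 16, 15, 17, 15 and 18 in the T24R2 libraries. The means were 15.2 ± 1.64 (SD, n = 5) and 16.2 ± 1.30 (SD, n = 5). Since T24R2 libraries also held more marked genes in all, the ABC share of marked protein-coding genes was 0.211% ± 0.0196 in T24 and 0.199% ± 0.0142 in T24R2 (SD, n = 5 in either line). Of the 22 marked members, 18 were marked in both lines. ABCA13 (5 libraries) and ABCB4 (1 library) were marked only in T24, and ABCA2 (2 libraries) and ABCF2-H2BK1 (3 libraries) only in T24R2. ABCF2-H2BK1 is a readthrough gene that shares the ABCF2 exons. How many of all marked genes were marked in 1 line alone is not given here, so these counts are not read as a trait of the family.

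**Figure D1:**
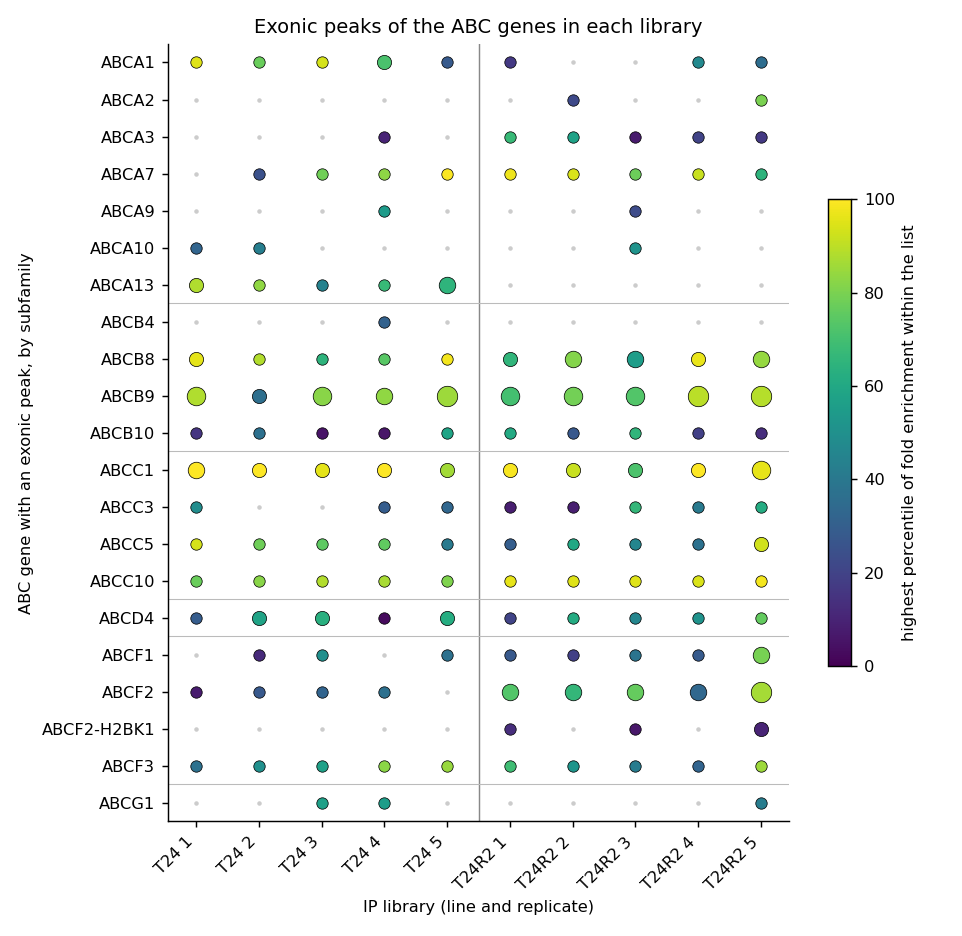
Exonic peaks of 21 of the 22 marked ABC genes (rows, grouped by subfamily) in the 10 IP libraries (columns). A coloured point stands for at least 1 exonic peak, its area grows with the number of peaks, its colour gives the highest percentile of fold enrichment within that library's list, and a grey dot stands for none. The 8 genes shown that were marked in all 10 libraries form unbroken rows, and the ABCA13 row ends at the line between T24 and T24R2.

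By subfamily, all 4 members of F were marked, against 7 of 12 in A, 4 of 9 in B, 4 of 11 in C, 1 of 5 in G and 0 of 1 in E, whose member ABCE1 is a ribosome-recycling factor. The members marked in every library were 9 of 46 (19.6%, beside 27.5% of all protein-coding genes), among them ABCB8, ABCB9, ABCB10, ABCC1, ABCC5, ABCC10, ABCD4 and ABCF3. By contrast none of the 12 subfamily A genes, of which several move lipids, was marked in all 10. Over any library 47.8% of the family and 51.1% of all protein-coding genes were marked. Of the 24 unmarked members, 5 had a peak in an intron and 19 had no peak anywhere in the gene. Their canonical transcripts had a median length of 5578 nt against 4849.5 nt in marked members, and a median longest exon of 1603 nt against 1199.5 nt. No difference in length was tested.

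Of the 10 genes counted as drug exporters 4 were marked, ABCC1, ABCC5 and ABCC10 in all 10 libraries and ABCC3 in 3 T24 and 5 T24R2 libraries. ABCB1 (P-glycoprotein), ABCC2, ABCC4, ABCC6, ABCC11 and ABCG2 (breast cancer resistance protein) had no exonic peak in either line. ABCB1 had a single intronic peak in 1 T24 library and ABCC4 an intronic region in 2 T24 libraries, while ABCC2, ABCC6, ABCC11 and ABCG2 had no peak at all.

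ABCC1, an exporter of glutathione conjugates and of many anticancer drugs, had the region with the highest median list percentile of the family. Its distal 3′UTR region (chr16:16142015-16142268, 895 nt past the stop codon in the last of 31 exons) had fold enrichments of 33.8, 32.8, 17.9, 33.8 and 11.2 in T24 and of 20.8, 15.7, 8.42, 27.2 and 17.4 in T24R2. Fold enrichment is the IP level over the local input level at the summit, and distances from the stop codon are those of the strongest summit along the spliced transcript. Its median, 19.4, stood at a median percentile of 97.6 within the lists, and the lines overlapped. A separate region lay 52 nt past the stop codon (chr16:16141095-16141501) and had fold enrichments of 5.31, 3.58, 8.31, 4.43 and 3.79 in T24 and of 10.7, 9.13, 8.47, 10.3 and 7.08 in T24R2. Here 4 of the 5 T24 values lay below every T24R2 value, and T24 replicate 3 lay within the T24R2 range. The difference on the log2 scale, centred on each library's median, was 0.81 ± 0.26 (SE), which did not pass in limma over the 9577 regions called in all 10 libraries (unadjusted p = 0.00465, adjusted p = 0.135). The distal region went the other way, by -0.60 ± 0.32 (limma, adjusted p = 0.431).

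The balance of the pair of ABCC1 regions can be read within each library, where scaling between libraries drops out. The proximal over the distal fold enrichment was 0.157, 0.109, 0.463, 0.131 and 0.340 in T24 and 0.513, 0.582, 1.01, 0.380 and 0.406 in T24R2. The means were 0.240 ± 0.154 and 0.577 ± 0.253 (SD, n = 5 each), and T24 replicate 3 was the only T24 library inside the T24R2 range. This ratio was chosen after its values were seen and is given without a test. The summits of the pair lay 843 nt apart in the same exon of 1881 nt. Further ABCC1 regions were called in 1 library of each line (chr16:16142545-16142819, 3′UTR) and in T24R2 replicate 5 alone (chr16:16136464-16136605, coding exon 29).

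ABCC10, an exporter of taxanes and other lipophilic drugs, was the exporter whose values separated the lines. Its only region (chr6:43432456-43433257) covered part of coding exon 3, an internal exon of 1219 nt in a transcript of 22 exons. Fold enrichment was 10.9, 10.5, 13.6, 12.8 and 9.92 in T24 and 16.3, 18.2, 14.5, 16.5 and 20.2 in T24R2, so every T24R2 library lay above every T24 library. It was the only one of the 11 shared ABC regions whose lines did not overlap, and 3.64% of the 9577 shared regions did so. The means were 11.6 ± 1.56 and 17.1 ± 2.17 (SD, n = 5 each). The limma difference of 0.47 ± 0.22 (SE) on the centred log2 scale gave an adjusted p of 0.337. The rank of the region within each library gave a two-sided exact permutation p of 0.0079, the smallest that 5 against 5 libraries allow, and 0.203 after Benjamini-Hochberg adjustment over the shared regions.

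ABCC5, an exporter of cyclic nucleotides and nucleotide analogues, was marked outside its full-length transcript. Its region (chr3:183984363-183984877) lay in intron 5 of the canonical transcript, 1754 nt from the nearest canonical exon. It also lay in the 3′UTR of 4 annotated transcripts, called short here for their coding sequences. Those ran to between 627 and 696 nt against 4314 nt for the canonical one. The whole transcripts were 1848 to 4697 nt long, and a nonsense-mediated decay transcript was among them. Fold enrichment was 16.6, 9.72, 10.5, 10.0 and 6.03 in T24 and 5.28, 8.62, 6.13, 5.998 and 14.7 in T24R2. The lines overlapped, and the limma difference was -0.51 ± 0.29 (SE, adjusted p = 0.458). T24R2 replicate 5 was the only library that had a peak in a canonical coding exon of ABCC5. ABCC3, an exporter of bile salts and glucuronides, had a 3′UTR region 160 nt past its stop codon (chr17:50691133-50691432). It was called in 2 T24 libraries, at 7.24 and 5.42, and in all 5 T24R2 libraries, at 3.55, 4.14, 7.84, 6.34 and 7.71 (Fisher's exact test, p = 0.167).

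**Figure D2:**
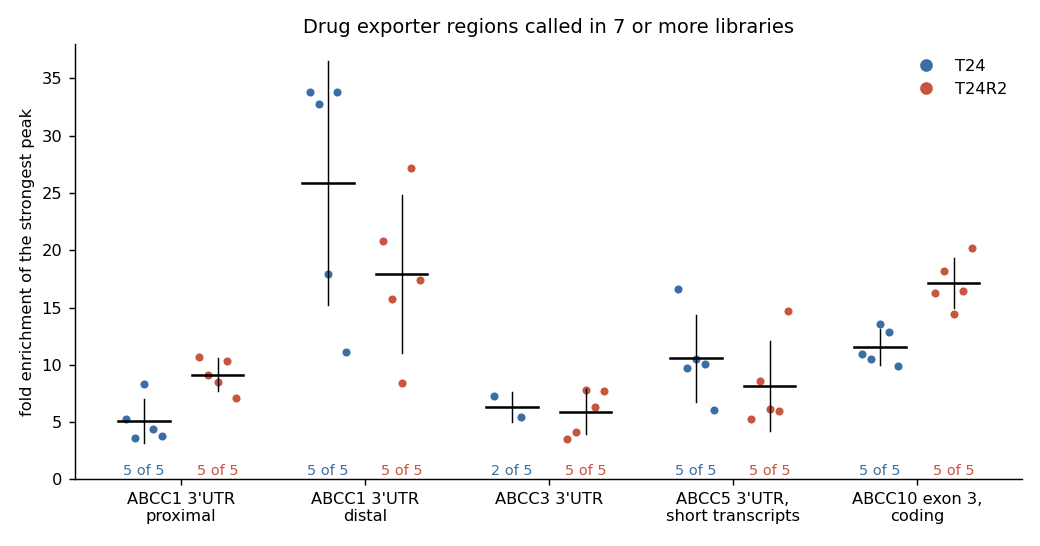
Fold enrichment (vertical axis, linear from 0) of the strongest peak in the 5 drug exporter regions called in 7 or more libraries. Points are single libraries of T24 and T24R2, horizontal lines are means, vertical lines are 1 SD, and the number of libraries with a peak stands under each group. The ABCC10 points of T24R2 lie at 14.5 to 20.2, above all T24 points at 9.92 to 13.6, and the groups of the other regions with 5 values a line overlap.

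The 247 exonic peaks of the family fell into 47 regions after overlapping peaks of the 10 lists were merged. Of these 11 were called in all 10 libraries (23.4%, beside 31.5% of all protein-coding exonic regions) and 13 in a single library (27.7%, beside 20.7%). More T24R2 than T24 libraries had a peak in 21 regions, fewer in 13, and as many in 13. The same shares over all 25300 protein-coding exonic regions were 46.8% and 15.7%, against 44.7% and 27.7% in the family. T24R2 replicate 5, whose list was the longest, alone accounted for 6 of the 12 ABC regions found only in T24R2. How many of all exonic regions were found only in T24R2 is not given here.

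**Figure D3:**
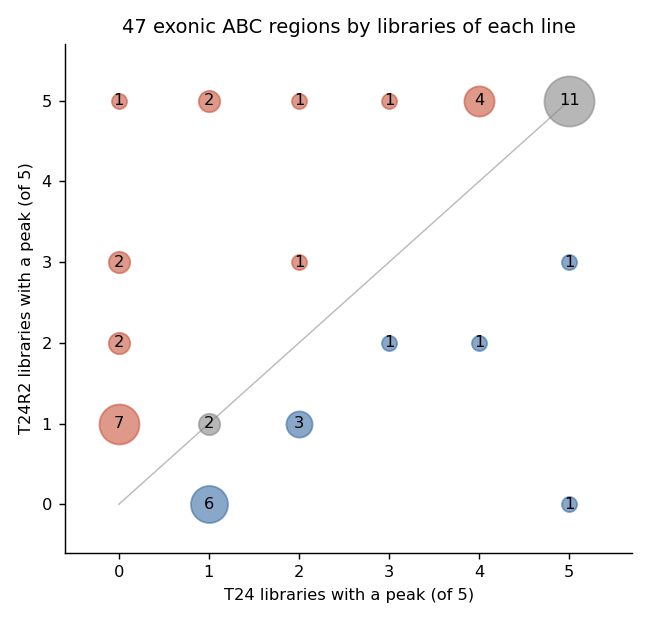
Exonic ABC regions by the number of T24 libraries (horizontal axis) and T24R2 libraries (vertical axis) with a peak, with the number of regions printed in each bubble. The 11 regions in the upper right corner were called in every library, and 1 region lies at 5 T24 and 0 T24R2 libraries and 1 at 0 T24 and 5 T24R2 libraries.

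How many libraries marked a member was compared between the lines with a test that could not pass the adjustment. Fisher's exact test with Benjamini-Hochberg adjustment called 0 of the 10237 marked genes, with 827 at an unadjusted p under 0.05, and 0 of the 43676 merged regions, with 4021. A complete split of 5 against 0 libraries, which gives the smallest p that these libraries allow (0.0079), had an adjusted p of 0.203 over the genes and 0.195 over the regions, so the missing calls do not show that the lines were alike. At the unadjusted threshold 1 of 22 marked ABC genes had more T24R2 libraries, where 5.8% of genes did, and 1 of 22 more T24 libraries, where 2.28% did. Of the 47 ABC regions, 3 (6.38%) had more T24R2 libraries, beside 7.11% of all regions, and 1 (2.13%) more T24 libraries, beside 2.09%. The family's counts were thus near those of the whole table. For regions, that table also holds those outside protein-coding exons, and the share over exonic regions alone is not given here.

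ABCA13, the longest protein of the family, was marked in 5 T24 libraries and no T24R2 library. The recurrent region lay in coding exon 18 of 62 (chr7:48279643-48279986), an exon of 1827 nt, at codon 2856. Fold enrichment was 13.8, 10.7, 6.98, 8.77 and 7.91 in T24, between percentiles 44 and 88 of the lists, and no T24R2 list held a peak there (Fisher's exact test, p = 0.0079, adjusted p = 0.195). A pattern of 5 of 5 T24 and 0 of 5 T24R2 libraries was found in 1.05% of all merged regions, exonic or not. The other ABCA13 regions, in exons 18 and 19, were each called in 1 T24 library.

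Regions of ABCF2, ABCA3 and ABCB8 were called in more T24R2 libraries. ABCF2, a cytosolic ATPase of the family without membrane spans, had a region at its 5′ end (chr7:151226710-151227210) with fold enrichments of 8.89, 9.40, 9.11, 5.77 and 12.2 in T24R2 and no peak in T24 (Fisher's exact test, p = 0.0079, adjusted p = 0.195). The opposite pattern to ABCA13, 0 of 5 against 5 of 5, was found in 3.02% of all merged regions, exonic or not. The summits straddled an exon edge, since 2 lay in the 5′UTR of a short transcript and the others in intron 1. ABCA3, which loads surfactant phospholipids into lamellar bodies, had a 3′UTR region 393 nt past its stop codon (chr16:2275964-2276423). It was called at 3.90 in T24 replicate 4 and at 8.20, 8.36, 3.47, 4.90 and 4.42 in T24R2 (Fisher's exact test, p = 0.0476, adjusted p = 0.517). ABCB8, a transporter of the inner mitochondrial membrane, had a 3′UTR region 1003 nt past its stop codon (chr7:151045314-151046941), called at 7.18 in T24 replicate 1 and at 7.60, 12.2, 6.45, 18.7 and 8.67 in T24R2, with the same p-values. The single T24 values of ABCA3 and ABCB8 lay within their T24R2 ranges.

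An intronic region of ABCC1 was of the same kind and was looked at after its values were known. It lay in intron 20 of 30 (chr16:16103480-16103719, 919 nt from an exon) and was called in all 5 T24R2 libraries, at 4.54, 9.06, 4.08, 4.05 and 7.63, and in no T24 library. Fisher's exact test gave a p of 0.0079 and an adjusted p of 0.195.

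Among the 11 regions called in all 10 libraries, 5 had a higher mean in T24R2 and 6 a lower one. None passed limma at an adjusted p of 0.05, where 0.48% of the 9577 shared regions were higher and 0.313% lower in T24R2. At an unadjusted p under 0.05, 3 of the 11 and 1337 of the 9577 (13.96%) were found, and the 3 were the proximal ABCC1 region, ABCC10 and ABCB8. The region of ABCB8 in a non-coding retained-intron transcript (chr7:151039523-151040146) had fold enrichments of 18.4, 12.1, 8.97, 9.66 and 17.4 in T24 and of 8.06, 8.31, 6.80, 11.6 and 11.5 in T24R2. The values overlapped, and the difference of -0.59 ± 0.27 (SE) did not pass (limma, adjusted p = 0.329). The median absolute difference was 0.47 over the ABC regions and 0.25 over all shared regions, both on the log2 scale.

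**Figure D4:**
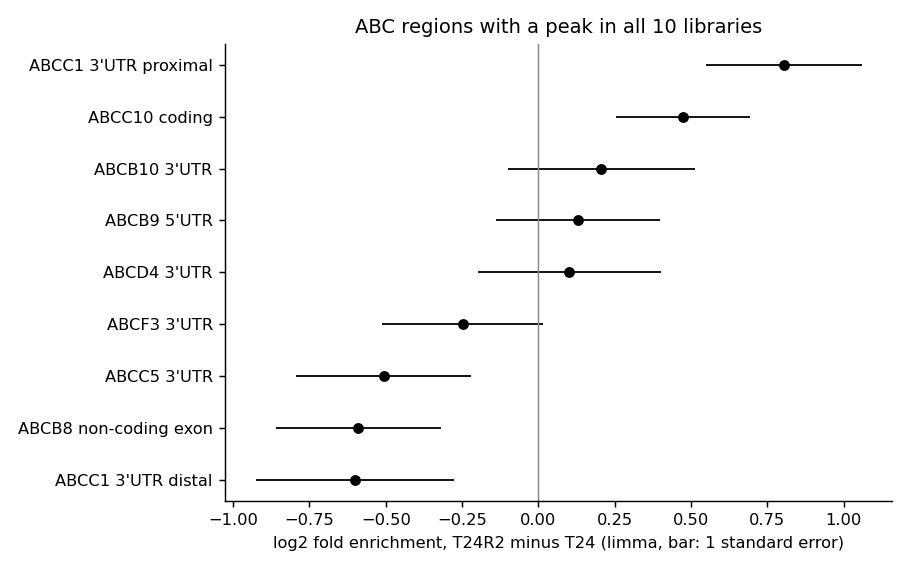
Difference in centred log2 fold enrichment, T24R2 minus T24 (horizontal axis), for 9 of the 11 ABC regions with a peak in all 10 libraries. Points are limma estimates and bars 1 standard error. The ABCC1 regions lie at opposite ends, at 0.81 and -0.60, and no region shown passed an adjusted p of 0.05.

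ABCB8, ABCB9 and ABCB10, which sit in mitochondria or lysosomes, were the subfamily B members marked in every library. For ABCB8 this held only through its region in the retained-intron transcript, which lay in intron 9 of the canonical transcript. ABCB4, a phospholipid transporter of liver cells, was marked in T24 replicate 4 alone. ABCB9, a lysosomal peptide transporter, had 40 exonic peaks in 8 regions, 25 of them at exons of other genes. Its coding exon 2 (chr12:122959475-122960404) was called in 4 T24 and 5 T24R2 libraries at a median fold enrichment of 8.61, and its stop codon region (chr12:122929670-122930052) in 2 and 3 libraries at 5.39. The strongest region (chr12:122974126-122976927, median fold enrichment 11.2, all 10 libraries) lay in the 5′UTR of a longer transcript, 8535 nt upstream of the nearest canonical exon. Its fold enrichment was 5.93, 5.84, 11.9, 11.7 and 10.9 in T24 and 8.60, 11.5, 6.41, 13.9 and 13.1 in T24R2, which overlapped. Its summit also lay in an exon of OGFOD2, and 4 further upstream regions lay in exons of OGFOD2 or ARL6IP4, so these 5 cannot be assigned to ABCB9 alone. ABCB10, a mitochondrial transporter linked to haem synthesis, was marked 24 nt past its stop codon (chr1:229518066-229518396) at fold enrichments between 3.39 and 7.73, although 8 of its 10 summits lay in the coding sequence.

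ABCD4, a member of subfamily D that works in lysosomal cobalamin release, was marked in all 10 libraries. Its region lay 27 nt past its stop codon (chr14:74286100-74286858) at fold enrichments between 2.92 and 9.65, although 6 of its 13 summits lay in the coding sequence.

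All 4 members of subfamily F were marked, counting the readthrough gene, whose 2 regions are shared with ABCF2. ABCF3 had a region 113 nt past its stop codon in all 10 libraries (chr3:184193521-184194141), at mean fold enrichments of 8.70 ± 2.33 in T24 and 7.91 ± 2.50 in T24R2 (SD, n = 5 in either line). ABCF1, which acts in translation initiation, was marked in 3 T24 and 5 T24R2 libraries. A region at coding exon 14 of 25 was called in those libraries, but its summit lay in the exon in only 3 T24 and 3 T24R2 libraries. Another region lay in the last ABCF1 exon in 3 T24R2 libraries, at 2.56 to 3.36. In T24R2 replicates 2 and 4 the last-exon peak was the only exonic one. ABCF2 had its main region 616 nt past the stop codon (chr7:151213153-151214093), called in 4 T24 and 5 T24R2 libraries between 3.75 and 6.93.

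The regions of the marked subfamily A genes lay in 3′UTRs, apart from those of ABCA13 in its coding sequence. Values per library of ABCA1 and ABCA7 are given although they were chosen after they were seen. ABCA1, which loads cholesterol onto apolipoprotein, was marked 47 nt past the stop codon (chr9:104783875-104784481) at 17.8, 9.56, 16.1, 9.28 and 5.16 in T24 and at 4.36, 6.82 and 5.53 in 3 T24R2 libraries. The highest T24R2 value lay below 4 of the 5 T24 values, and no test was made because 2 libraries had no value. ABCA7, a phospholipid transporter, was marked 80 nt past the stop codon (chr19:1065064-1065544) in 4 T24 libraries, at 5.07, 10.97, 11.6 and 20.1, and in 5 T24R2 libraries, at 17.4, 17.5, 9.26, 14.9 and 8.12. ABCA2 was marked in 2 T24R2 libraries, ABCA9 in 1 of each line, and ABCA10 in 2 T24 and 1 T24R2 libraries. The ABCA10 region (chr17:69147260-69147417) lay 675 nt from the nearest canonical exon. It was in the 3′UTR of short annotated transcripts with coding sequences of 229 and 138 nt, against 4632 nt for the canonical one. ABCG1, the cholesterol exporter that was the only marked G member, had a region 66 nt past the stop codon in 2 T24 and 1 T24R2 libraries.

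A larger share of exonic ABC summits than of all exonic summits lay in the 3′UTR. Averaged over the 10 libraries, 50.7% ± 4.37 (SD) of ABC summits were in the 3′UTR and 30.1% ± 4.21 in the coding sequence, against 32.6% ± 0.733 and 55.3% ± 0.892 of all exonic summits. The ABC 3′UTR share was 48.8% ± 4.36 in T24 and 52.6% ± 3.86 in T24R2 (SD, n = 5 in either line), a difference smaller than 1 SD of either line. Counted once per region the gap was smaller, with 40.8% of 49 pairs of a region and a gene in the 3′UTR, against 29.5% of 26742. Of the 38 pairs on a canonical transcript, 12 (31.6%) lay within 200 nt of the stop codon, against 20.9% of all, and 19 (50%) in the last exon, against 46.3%. ABC coding sequences are long and cut into many exons, with a median of 26.5 exons in marked members against 9 in all marked genes, and of the 8 shared regions on canonical transcripts all 8 lay in exons of at least 400 nt, as did 89.4% of all shared ones. The effect of exon structure on these shares was not tested.

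**Figure D5:**
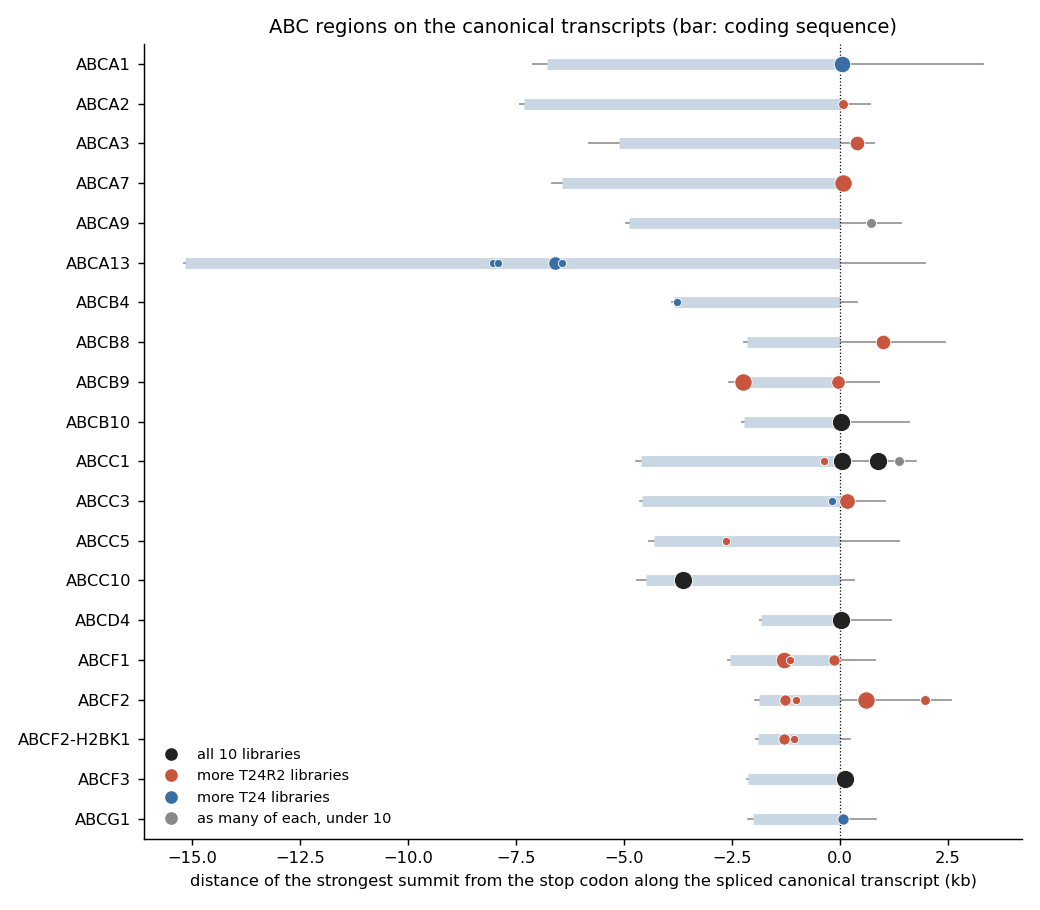
Strongest summit of 34 of the 38 pairs of a region and an ABC gene on the canonical transcript, as distance from the stop codon along the spliced transcript (horizontal axis, kb). Thick bars are coding sequences, thin lines untranslated regions, point area grows with the number of libraries, and colour shows in which line more libraries had a peak. Of the 34 points, 12 lie within 200 nt of the dotted stop codon line, and the ABCA13 points lie in the middle of its coding sequence.

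The DRACH motif was within 50 nt of the median summit, on the gene's strand, in 38 of 42 ABC regions of genes on a single strand (90.5%, 95% Wilson interval 77.9 to 96.2%), against 88.2% of 24753 protein-coding exonic regions. On the opposite strand of the same windows it was found in 76.2% and 72.3%. The core GGAC stood in 42.9% of the ABC regions and 46.5% of all, against 35.7% and 26.5% on the opposite strand. The intervals cover counting error only. The windows were cut from the genome without splicing, so a match can lie outside the exon. That was the case for the only match of the ABCF1 regions chr6:30584158-30584508 and chr6:30585227-30585295. In the sequences printed above, the distal ABCC1 match lay 29 nt from the median summit and the ABCC10 match 17 nt. The ABCF2 match, the farthest of those printed, lay 46 nt away. The ABCB8 region in the retained-intron transcript and the ABCB9 stop codon region, which are not among those printed, held no DRACH in the window.

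Genes that work with the family were also counted. Of 14 regulators of ABC genes, all transcription factors apart from KEAP1, 9 were marked in all 10 libraries and 4 in none. Among the 9 were NFE2L2, KEAP1, AHR and HIF1A. Of all protein-coding genes, 27.5% were marked in all 10 libraries. NR1I2, the xenobiotic sensor that controls drug exporters, was marked in 4 T24 libraries and no T24R2 library (Fisher's exact test, p = 0.0476, adjusted p = 0.589). Of 13 partners of ABC proteins, 7 were marked in some library, near the 51.1% of all protein-coding genes. KCNJ8, the potassium channel pore that ABCC9 regulates, was marked in 5 T24 libraries and in 0 of T24R2 (p = 0.0079 in the same exact test, adjusted p = 0.203), and GCN1, a partner of ABCF proteins, in 1 and 5 (p = 0.0476, adjusted p = 0.589). The ABC genes under other symbols were TAP1, marked in 0 T24 and 3 T24R2 libraries, TAP2, in 4 and 2, and CFTR, in none. At the unadjusted threshold, 2.28% of marked genes had more T24 libraries, as NR1I2 and KCNJ8 did, and 5.8% more T24R2 libraries, as GCN1 did. As for the family, no gene could pass the adjustment in this test.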

How the data were processed

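MeRIP-seq IP and input libraries of T24 and T24R2 were processed by the authors with STAR 2.7.0 against hg38, SAMtools 1.10 and MACS2 3.0.0a6, and replicates were not pooled. Reads that mapped uniquely and were not duplicates were kept. The deposited lists give each peak of IP over input a fold enrichment at the summit, −log10 p and q values and a whole-number score, with no strand. The library kit keeps strand, but the lists do not, so overlapping genes cannot be separated. The score and the −log10 p of the authors were not used further, and the fold enrichment and −log10 q entered the tests and alternatives. The deposited regions equal the merge of the 10 lists. Read counts were not analysed here, so the count tests named in the study's methods were replaced by the following.

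Summits were assigned to exons of GENCODE release 44 genes, where the study used another release. Two-sided Fisher's exact tests compared libraries with a peak, and limma 3.58.1 (R 4.3.3) compared centred log2 fold enrichment over regions in all 10 libraries, all with Benjamini-Hochberg adjustment at 0.05. Centring subtracted each library's median. Scripts ran in Python 3.11.15 and were tested on simulated data. Alternatives were other peak thresholds, equal list lengths, other exon rules, other scalings, blocking on the replicate number and dropping single libraries. Values per library were given for drug exporters with a region, for regions with an unadjusted p under 0.05 and for the 5 shared regions with the highest median list percentile. Some values of the family are not reported here, although counts over the family include them. Members and lists were chosen with earlier results of these data known.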

Additional observations from a re-analysis of the deposited data

Results flagged for a closer look

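Of 29 groups of 4 or 5 values, 2 held a value far from the others, where chance alone flags about 1 in 20 groups. T24 replicate 4 had 18 marked ABC genes against 14 to 15 in the other T24 libraries. T24 replicate 2 had 20 exonic ABC peaks against 23 to 24, and its list was the shortest of the 10.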

How the results depend on the processing

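Of the values that answer a comparison, 143 settings kept the value within 1 SD or 1.5 times and 9 moved it. Of the values of single genes and regions, 247 kept direction and side of the threshold, 7 no longer passed and 3 reversed. With −log10 q of at least 10, members in all 10 libraries fell from 9 to 3, the difference in ABC genes per library was 3 in place of 1, the difference in ABC share was 0.0136 in place of -0.0114 percentage points, and the coding and 3′UTR shares were 25.4% and 56.8%. With canonical exons alone those shares were 39.1% and 55.5%, the difference in ABC genes was 2.2 and that in ABC share turned to 0.00666. In that setting 7 members were marked in all 10 libraries. With equal list lengths 6 members were in all 10 libraries and the difference in ABC genes was 0.2, and at −log10 q of at least 5 it was 1.8. With canonical exons, equal list lengths and −log10 q of at least 5, the differences in ABC genes and share moved by less than 1 SD between libraries. At −log10 q of at least 10 both moved by more than 1 SD. The motif share was 42.9% with GGAC and 71.4% with DRACH within 25 nt of the median summit. ABCB9 at 122974126 reversed to -0.15 with −log10 q (limma, adjusted p = 0.862) and to -0.028 without T24 replicate 1 (up to 0.25 with another library left out). ABCD4 reversed without T24 replicate 4, with a range of -0.19 to 0.23. The cause was not tested. ABCA13 no longer passed the unadjusted threshold at −log10 q of at least 10, nor did ABCA3 there or with equal list lengths (Fisher's exact test, p = 0.167 each), and the ABCA3 gene did not with any base of a peak in an exon.

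With 1 library left out, members marked in any library numbered 21 to 22 and in all remaining libraries 9 to 10, the difference per library was 0.55 to 1.7, and 0 ABC regions passed limma. Leaving out summits at exons of genes outside the family was chosen after seeing the data and gave 22 members, 9 of them in all 10 libraries. Without centring, the median difference over all shared regions was 0.11 in place of 0.02, and no ABC region changed direction. With a replicate block, limma called 50 regions in place of 76 and 0 of the family (lowest adjusted p = 0.144), and the differences in genes and share were 1 and -0.0114. Libraries with the same number correlated at -0.04 to 0.12 in their deviations from the line means. Fold enrichment thus showed no pairing by number, but the labels do not say whether the replicates were paired. With −log10 q in place of fold enrichment limma called 270 regions, 0 of the family, with a lowest adjusted p of 0.0518. Without T24R2 replicate 4 limma called 29 regions, and without T24 replicate 3 it called 38. Depth is unknown, so a missing peak shows no more than that none was called.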
